A study of Drosophila melanogaster with 3 samples.

Results

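Binding of dmrt11E was examined at 5 genes that lay out the early nervous system of Drosophila melanogaster: the column genes vnd, ind and Dr and the SoxB genes SoxN and D. The 5 were taken by name from the 13968 protein-coding genes on the placed chromosome arms, and a peak was counted at a gene when its summit lay in the gene body or within 10 kb of it. These windows held 11 of the 6706 reproducible peaks of the series. The series comprised 1 group, whole embryos of mixed sex from a transgenic line in which dmrt11E carries a C-terminal GFP tag (dmrt11E-eGFP). The age of the embryos, 2 to 10 h, is that of the source label, since the separate age field holds a number of hours that no embryo reaches. Chromatin sheared to between 200 and 800 bp was immunoprecipitated with an antibody against the tag and sequenced (ChIP-seq) in 3 biological replicates. All samples came from 1 donor line, every cell type of the embryo is mixed in the sample, and an immunoprecipitation without the tag was not analysed here, so signal that any tagged line would give at these sites cannot be told apart from binding of dmrt11E.

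The neuroectoderm of the fly embryo is divided along the dorsoventral axis into columns, each marked by a homeodomain repressor. The gene vnd (ventral nervous system defective, related to vertebrate Nkx2 genes) marks the ventral column, ind (intermediate neuroblasts defective, related to Gsx genes) the intermediate column and Dr (Drop, also called msh, related to Msx genes) the lateral column. A more ventral gene represses the more dorsal ones, and the boundaries are set by Dorsal, EGFR and Dpp signalling. SoxN and D (Dichaete) encode HMG-box proteins of the SoxB group, which are expressed in the neuroectoderm and act with the column genes in neuroblast formation. The factor dmrt11E belongs to the DM-domain family of zinc-binding transcription factors, which includes the sex-determination gene doublesex.

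Each replicate list and the list of the pooled replicates held 30000 peaks. The −log10 q went down to 0.245 in the pooled list and to 0.258, 0.443 and 0.148 in replicates 1, 2 and 3. A place low in these lists is thus not a significant call. The irreproducible discovery rate (IDR) set held the 6706 peaks of the pooled list with the highest signal, so an IDR rank is also a pooled rank, with 1 the highest signal. Signal values are the authors' own, differ in scale between lists and were read only as ranks within a list. A replicate peak was matched to an IDR peak when its summit lay within 150 bp, and a peak among the 6706 highest of a replicate is called a top peak below. With 1 group there was no contrast to test, so the values are descriptions, with the spread over 3 replicates and the share over all protein-coding genes or all IDR peaks beside them. The depth of the libraries is unknown from the files used. The labels number biological replicates and give each a biosample of its own but do not say how the embryos were collected, so the spread measures these 3 samples.

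The sequences of 101 bp centred on the strongest IDR summit of each gene are printed here, with a further Dr site that held a pair of the motifs searched. They are on the plus strand of dm6 and were read from the RefSeq copy of that assembly, and capitals mark every match to the motifs described further on.
vnd, upstream, chrX:582005-582105: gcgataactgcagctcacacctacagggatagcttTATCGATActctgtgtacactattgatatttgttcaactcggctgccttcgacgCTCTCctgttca
ind, upstream, chr3L:15048268-15048368: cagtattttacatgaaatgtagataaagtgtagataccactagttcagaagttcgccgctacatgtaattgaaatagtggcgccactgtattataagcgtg
Dr, downstream, chr3R:29567123-29567223: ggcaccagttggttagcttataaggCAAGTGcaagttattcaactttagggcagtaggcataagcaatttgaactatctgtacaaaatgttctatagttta
Dr, upstream, chr3R:29550083-29550183: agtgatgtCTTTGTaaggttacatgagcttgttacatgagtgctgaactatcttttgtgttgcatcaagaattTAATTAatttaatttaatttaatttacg
SoxN, downstream, chr2L:8834939-8835039: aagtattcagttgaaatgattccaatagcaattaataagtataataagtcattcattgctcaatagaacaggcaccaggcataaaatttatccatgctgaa
D, downstream, chr3L:14174356-14174456: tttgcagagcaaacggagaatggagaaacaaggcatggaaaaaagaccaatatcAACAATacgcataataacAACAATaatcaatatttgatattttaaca

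At vnd (FBgn0261930, X, 582121 to 598151, plus strand), a peak covered the promoter, the only one of the 5 genes with an IDR peak at its own TSS (transcription start site). It ran from 581902 to 582179, with its summit 66 bp upstream of the 5′ end of the gene, and ranked 2390 with a signal of 436.0. In replicates 1, 2 and 3 the matched peaks ranked 935, 2208 and 5879. All were top peaks, but their ranks spread by a factor of 6.29. The other IDR peak of the window, at 603132 to 603535, lay 5183 bp past the end of vnd in an intron of spdi, a gene on the opposite strand that overlaps vnd, and ranked 3769. It was steadier, with ranks of 4884, 3385 and 3843 in replicates 1, 2 and 3. None of the 10 pooled summits of the window lay in the 16031 bp of the vnd gene body. The replicate lists held 8, 15 and 9 summits in the window, of which 2 in each were top peaks. The best pooled peak below the IDR limit, in spdi 8436 bp past the end of vnd, ranked 7666 (7388, 7162 and 11604 in the replicates). The window also reached Appl, which encodes the fly relative of the amyloid precursor protein of neurons.

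At ind (FBgn0025776, 3L, 15042799 to 15043924, minus strand), 1 IDR peak was found, the lowest ranked of the best peaks of the 5 genes. The peak, at 15048116 to 15048519, lay 4394 bp upstream of the gene and ranked 5313 with a signal of 209.1. Replicates 1, 2 and 3 gave it ranks of 4942, 11585 and 4014, so it was a top peak in 2 of the 3 replicates. The gene lies inside Sytbeta, a synaptotagmin family gene, and the peak was intronic to Sytbeta, with the TSS of CG43678 nearest at 1177 bp. The window held 9 other protein-coding genes, the most of the 5 windows, and the site cannot be assigned to ind from position alone. The pooled list held 6 summits there, and the replicate lists 9, 7 and 5. The next pooled peak ranked 10080 and lay 294 bp upstream of a TSS of Sytbeta.

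At Dr (FBgn0000492, 3R, 29556386 to 29565244, plus strand), 4 IDR peaks were found, the most of the 5 genes and in a window with no other protein-coding gene. The strongest, at 29567049 to 29567322, lay 1929 bp past the end of the gene and ranked 1235 with a signal of 719.2, and its matched peaks ranked 1368, 1184 and 1248 in replicates 1, 2 and 3 (mean 1267 ± 93.4, SD, n = 3). The other 3 lay upstream within 2369 bp of one another. The peak 8622 bp upstream, at 29547644 to 29547926, ranked 1348, with 1305, 1434 and 1501 in the replicates. The peak 6253 bp upstream, at 29550023 to 29550258, ranked 2126, with 2196, 2237 and 2050 in the replicates. At these 3 sites the replicate ranks differed by a factor of at most 1.16. Between the upstream pair lay a weaker peak, at 29548886 to 29549049 and 7416 bp upstream, which ranked 6500 and came just inside the IDR limit. It was a top peak in replicates 1 and 2 (ranks 4741 and 4074) and ranked 19191 in replicate 3, where its −log10 q was 0.501. Just outside the limit, a pooled peak 5150 bp past the end of Dr ranked 7203 and was a top peak in replicate 2 alone (10381, 5471 and 8115). The window held 17 pooled summits and 21, 14 and 17 summits in the replicate lists, of which 5, 5 and 3 were top peaks.

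**Figure D1:**
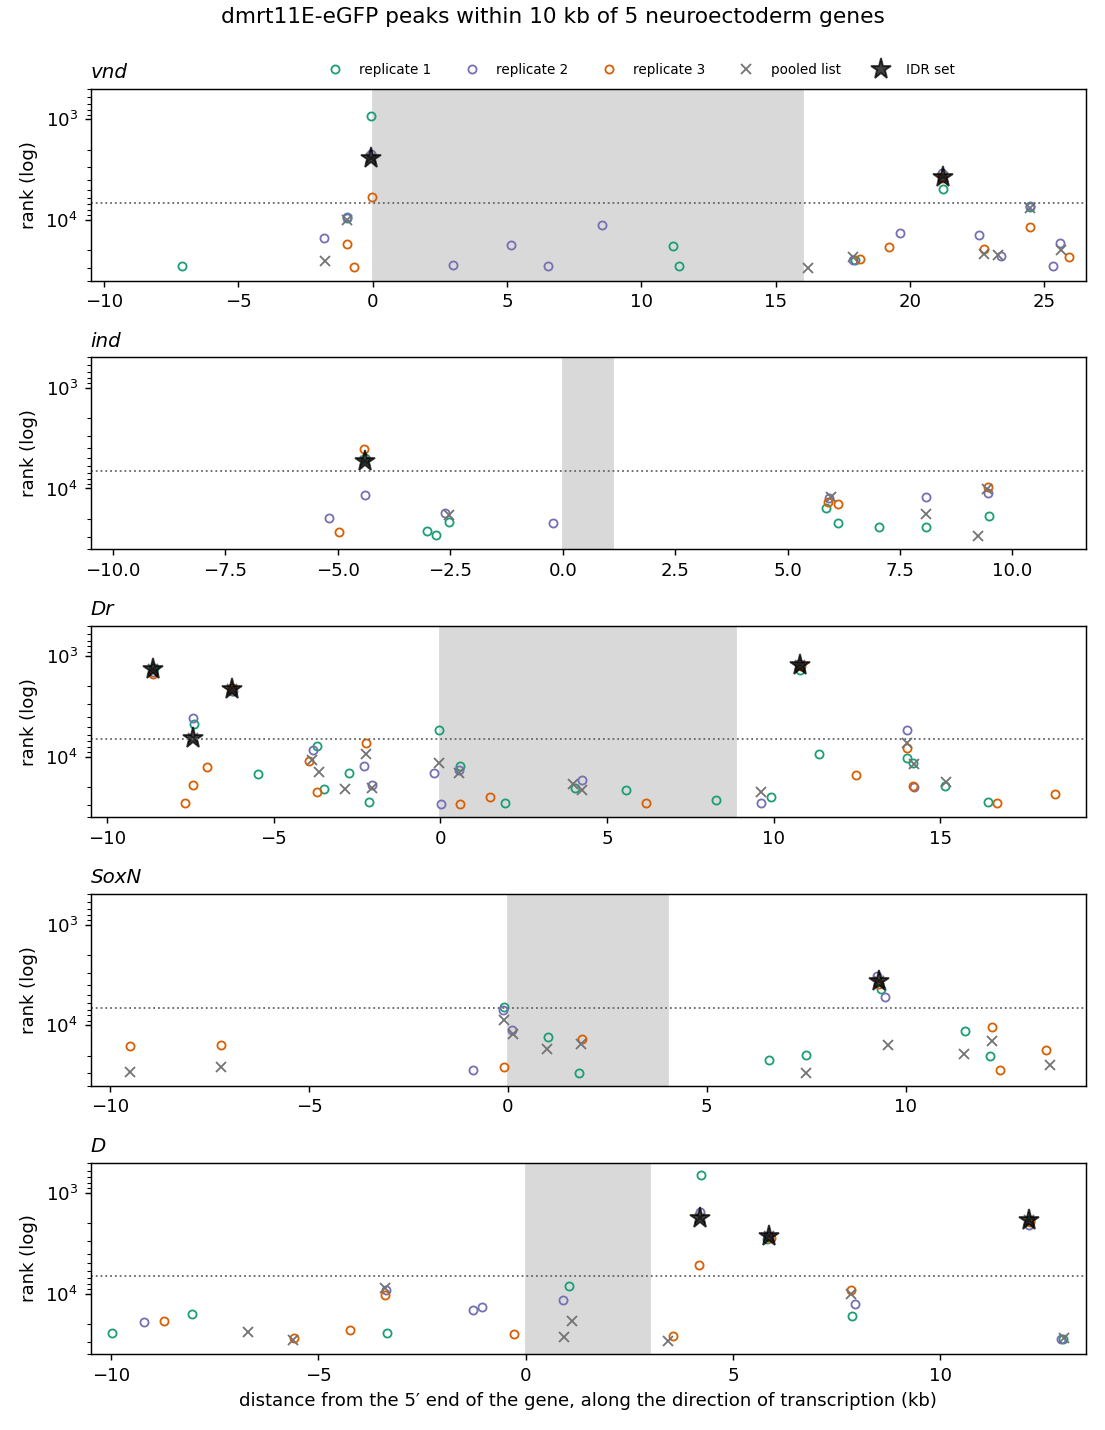
Peaks of each list at the 5 genes: the horizontal axis is the distance from the 5′ end of the gene along the direction of transcription in kb, the vertical axis the rank within the list on a log scale with strong peaks at the top, grey shading the gene body and the dotted line rank 6706. The 11 stars of the IDR set lie outside the shaded bodies, and at Dr and D they lie at similar heights to the replicate circles, except for the Dr peak at rank 6500 and the D peak nearest the gene.

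At SoxN (FBgn0029123, 2L, 8825645 to 8829670, plus strand), 1 IDR peak was found, at 8834870 to 8835029 and 5319 bp past the end of the gene, with no other protein-coding gene in the window. It ranked 3629 with a signal of 299.2, and 4413, 3259 and 3918 in replicates 1, 2 and 3, a top peak in all of them. The SoxN promoter came next but stayed outside the IDR set. The pooled summit 88 bp upstream of the TSS ranked 8902, and the best replicate peaks within 500 bp of the TSS ranked 6532, 7100 and 25990 in replicates 1, 2 and 3. The pooled list held 12 summits in the window, 3 of them inside the gene.

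At D (FBgn0000411, 3L, 14175610 to 14178620, minus strand), 3 IDR peaks were found, and all 3 lay past the 3′ end of the gene. The nearest, at 14174266 to 14174522 and 1204 bp from the gene, ranked 1782 with a signal of 554.7. Its ranks were 663, 1539 and 5247 in replicates 1, 2 and 3, the widest spread of the 11 peaks, at a factor of 7.91. The peak at 14172694 to 14172855, 2855 bp from the gene and 1651 bp from the first, ranked 2701 and was the steadiest of the 11, with 2852, 2693 and 2785 in the replicates. The farthest, at 14166349 to 14166585 and 9138 bp from the gene, ranked 1851, with 1868, 2105 and 1942 in the replicates. On the upstream side the window held the other protein-coding gene nan, which encodes a TRPV channel of sensory neurons, and the best pooled peak there, 3397 bp upstream of D, ranked 8753. The pooled list held 11 summits in the window, and each replicate list had 3 top peaks.

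The 11 IDR peaks all lay outside the 5 gene bodies, and bodies without an IDR summit were common. None of the 5 gene bodies held an IDR summit, against 13.0% of all 13968 protein-coding genes and 11.3% of the 9412 whose bodies were between 1126 and 16031 bp long, so most genes of this length lacked one too. Of the 11 summits, 5 were upstream and 6 downstream of their gene, and 6 lay more than 5 kb away. By annotation, 8 were intergenic, 2 intronic to a neighbour and 1 at a promoter, which is 72.7% intergenic, against 21.1% of all IDR peaks. The 8 intergenic ones were all the IDR peaks of Dr, SoxN and D, so the share rests on these loci. The promoter share was 9.09% (exact 95% binomial interval 0.230 to 41.3%) at the 5 genes, against 40.5% (39.3 to 41.6%) over all IDR peaks. The interval takes the 11 peaks as independent, although 4 lay at Dr and 3 at D, so it understates the uncertainty over genes. The median distance to the nearest TSS of any gene was 7416 bp, against 1006.5 bp over all IDR peaks. Beside this, 2 of the 5 windows, those of Dr and SoxN, held no other protein-coding gene. At D the only other one, nan, lay upstream and the IDR peaks downstream. The part of this spacing in the distances was not tested. The median rank was 2390, against 3353.5 over all IDR peaks, and the median GC content of the 101 bp about the summit was 31.7%, against 29.7%.

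Of the 11 peaks, 9 were among the top peaks of every replicate (81.8%), against 66.2% of all IDR peaks. The exceptions were the ind peak (rank 5313) and the weakest Dr peak (rank 6500). The 11 also ranked higher (median 2390 against 3353.5), and neither this share nor the ratios below were compared at like rank. The ratio of the worst to the best replicate rank was under 1.5 for 7 of the 11. The largest of these 7 ratios was 1.44, and 31.8% of the IDR peaks matched in every replicate had a smaller one. The median ratio of the 11 was 1.35, against 1.67 over the 6370 IDR peaks matched in every replicate. The vnd promoter peak and the D peak nearest the gene had larger ratios than 98.1% and 99.1% of those peaks, and both ranked best in replicate 1 and worst in replicate 3. The Dr peak 8622 bp upstream had the same order over a range of 1305 to 1501. Over all IDR peaks matched in every replicate, that order was held by 19.7% of the promoter peaks, 20.03% of the intergenic and 25.5% of the intronic ones. Rank in replicate 3 was over 5 times that in replicate 1 for 1.26% of the promoter peaks, 1.73% of the intergenic and 3.16% of the intronic ones. This look at the order of the replicates was chosen after the values were seen.

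**Figure D2:**
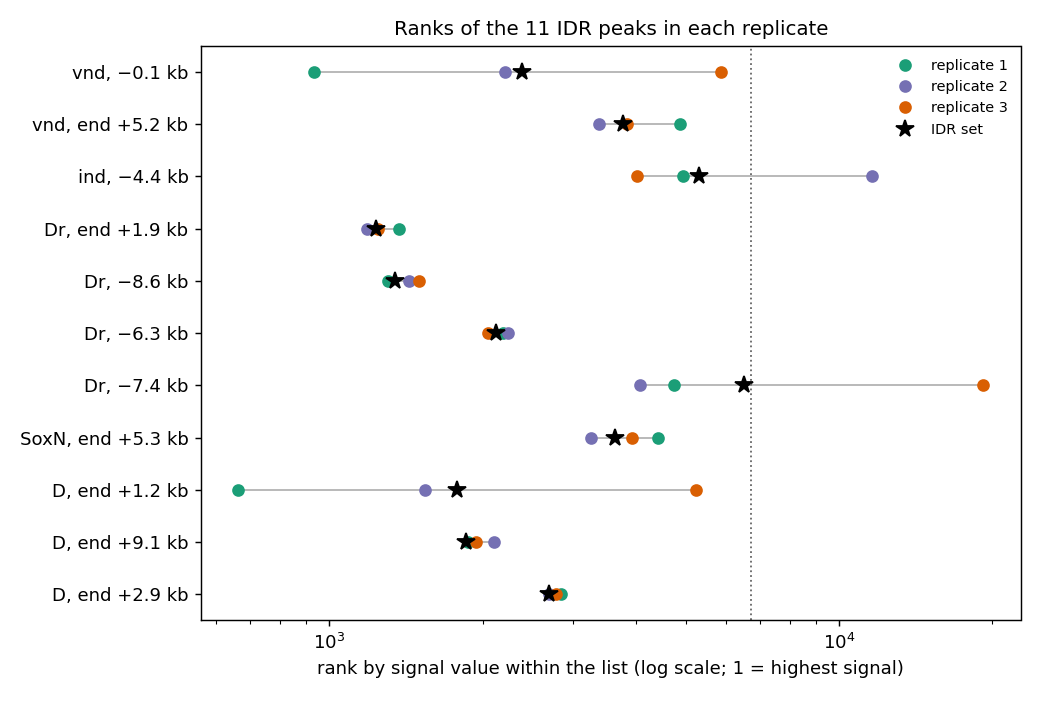
Ranks of the 11 IDR peaks: each row is a peak, named by its gene and its distance upstream (minus) or past the gene end (end +), circles are the 3 replicates, the star is the IDR rank and the dotted line is rank 6706, on a log axis with 1 the highest signal. The 3 replicates nearly coincide at 3 Dr peaks and 2 D peaks, and spread widely at the vnd promoter (935 to 5879), the nearest D peak (663 to 5247) and the weakest Dr peak (4074 to 19191).

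At their own transcription start sites, 4 of the 5 genes had no IDR summit, as was the case for most genes. An IDR summit lay within 500 bp of a TSS at 1 of the 5 genes, vnd, against 23.8% of all protein-coding genes. A pooled summit lay there at 4 of the 5, against 51.6% of all protein-coding genes. The −log10 q of the best one was 4.05 at vnd, 3.30 at SoxN, 2.01 at Dr and only 0.678 at D. In replicate 3 the best peaks there at SoxN and D had 0.229 and 0.251. Dr had one 30 bp upstream of its TSS at rank 11583, with 5353 in replicate 1, 14427 in replicate 2 at 202 bp, and no summit within 500 bp in the list of replicate 3. D had a pooled summit 46 bp from a TSS at rank 18622, and its best replicate peaks within 500 bp ranked 8439, 11498 and 25185. At ind neither the pooled list nor replicates 1 and 3 placed a summit within 500 bp, and replicate 2 placed one at rank 22034. Replicate 1 gave the best rank of the 3 replicates at the TSS of vnd, Dr, SoxN and D, by little at SoxN (6532 against 7100). The share of all genes with replicate 1 best was not taken. Over the promoter IDR peaks matched in every replicate, median ranks were 3274, 3132 and 3008 in replicates 1, 2 and 3. These medians are no background for Dr, SoxN and D, whose TSS peaks were outside the IDR set.

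In number of peaks the 5 genes were near the general level, with Dr and D above it. All 5 had an IDR summit in the window, but so did 68.9% of all protein-coding genes. Dr, with 4, and D, with 3, were the 2 genes of 5 with 3 or more, a level reached by 26.1% of all protein-coding genes, and 4 or more by 13.5%. The median was 2 at the 5 genes, against 1 over all protein-coding genes. Per 10 kb of window, Dr had 1.39 IDR summits, which is more than 85.4% of protein-coding genes, and D had 1.30, which is more than 81.9%. The densities of vnd (0.555), ind (0.473) and SoxN (0.416) lay around the median of all protein-coding genes, 0.468. In the replicates, top peaks per window averaged 4.33 ± 1.15 at Dr, 3 ± 0 at D, 2 ± 0 at vnd, 1.67 ± 0.577 at SoxN and 0.667 ± 0.577 at ind (SD, n = 3 each). In that order D and vnd did not overlap in any replicate, while Dr overlapped D, vnd overlapped SoxN, and SoxN overlapped ind. Together the windows held 13, 12 and 10 top peaks in replicates 1, 2 and 3.

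**Figure D3:**
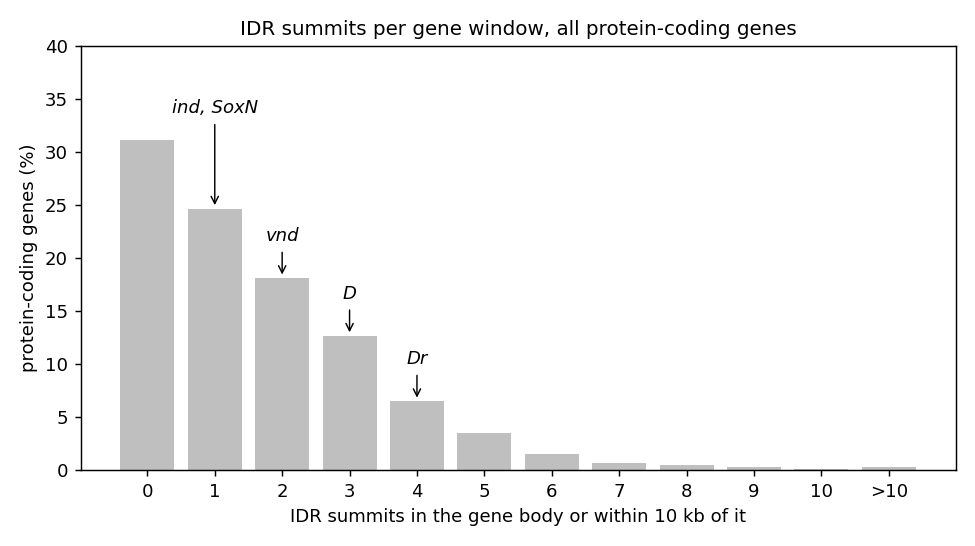
Share of the 13968 protein-coding genes, in percent, by number of IDR summits in the gene body or within 10 kb of it, with the 5 genes marked above their bars. The commonest count is 0, ind and SoxN stand at 1, vnd at 2, D at 3 and Dr at 4.

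Short motifs were searched within 50 bp of the summits on both strands, and 5 of the 11 peaks held at least 1 of the 9 motifs, against 40.7% of all IDR peaks. The core of the doublesex site, ACAATGT, was in none of the 11 and in 1.95% of all IDR peaks. Its looser form ACANTGT, which includes the core, was also in none of the 11 and in 3.36% of all IDR peaks. In the vnd promoter peak the letters TATCGATA, the site of DREF (DNA replication-related element factor), began 15 bp from the summit, and they were in 1.19% of all IDR peaks. The same peak held the motif of Trithorax-like, GAGAG, which was in 6.95% of all IDR peaks. The NK-2 class motif CAAGTG was in the strongest Dr peak alone, against 4.71% of all IDR peaks. The homeodomain motif TAATTA was in the Dr peaks 8622 and 6253 bp upstream, against 11.8% of all IDR peaks. The peak 6253 bp upstream also had the Sox HMG motif ACAAAG, which was in 6.78% of all IDR peaks. The other Sox HMG motif, AACAAT, which can overlap the doublesex core, occurred at 2 places in the D peak nearest the gene, 4 and 22 bp from the summit, and 14.3% of all IDR peaks held it. With 100 bp to either side, AACAAT was in all 3 D peaks and the vnd promoter peak, 4 of the 11, against 25.6% of all IDR peaks. At that width TAATTA was in 4 of the 11, against 19.3%. The Zelda motif CAGGTAG was in none of the 11 and in 0.418% of all IDR peaks. A match is a string of letters in the window and says nothing of a bound factor.

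Related genes were listed in 4 groups, and 42 of their 47 members (89.4%) had an IDR summit in the same window, against 68.9% of all protein-coding genes. These genes were longer, with a median body of 9416 bp against 2164.5 bp, and so had longer windows. All 6 Sox relatives had one, led by Sox14 (rank 177), Sox100B (rank 342) and Sox102F (rank 1184). Sox21a and Sox21b, the other SoxB genes, shared a best peak at rank 1583, which is close to the best rank at D (1782) and ahead of that at SoxN (3629). Sox relatives had IDR summits within 500 bp of a TSS at 3 of 6, against 23.8% of all protein-coding genes. Their bodies were long, with a median of 14589.5 bp. The count was 1 of 10 for the homeobox relatives, 3 of 15 for the dorsoventral list and 2 of 16 for the proneural and neuroblast list. Of the 10 NK and other homeobox relatives 9 had an IDR summit in the window, led by C15 (rank 190), the heart regulator tin (rank 324) and lbl (rank 1576). The gene scro, of the NK2 group like vnd, had none.

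Among listed genes of dorsoventral patterning and EGFR signalling, all 15 had an IDR summit in the window, against 68.9% of all protein-coding genes. Of these, 12 had 3 or more, against 26.1% of all protein-coding genes. The median of the 15 was 5 summits and 1.34 per 10 kb, against 0.468 per 10 kb over all protein-coding genes. They were led by zen, a homeobox gene of the amnioserosa (rank 43), aos, a secreted EGFR inhibitor (rank 72), and brk, a repressor of Dpp targets (rank 207). The receptor gene Egfr had 5 IDR summits, with the best at rank 2619, and 11 of the 15 had an IDR summit in the gene body, against 13.0% of all protein-coding genes. The bodies of the 15 were long, with a median of 20370 bp, against 2164.5 bp. Of 16 proneural and neuroblast genes, 12 had an IDR summit (75%), near the 68.9% of all protein-coding genes. The median of the 16 was 0.451 per 10 kb, close to that of all protein-coding genes. They were led by the transcription factor genes grh (rank 133), pros (rank 371) and dpn (rank 575), and those with none were sc, Kr, cas and gsb. At cas the replicate lists each held a top peak (ranks 4793, 2456 and 2156) that has no summit in the pooled list as used here, so the IDR set could not include it. Of 4426 sites with a top peak in every replicate, 8 lacked a pooled summit within 150 bp, none of them in the windows of the 5 genes, and 5 of the 13968 protein-coding genes had such a site and no IDR summit in their window. These lists were chosen with earlier results of the same data known, and no test was made of them.

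**Figure D4:**
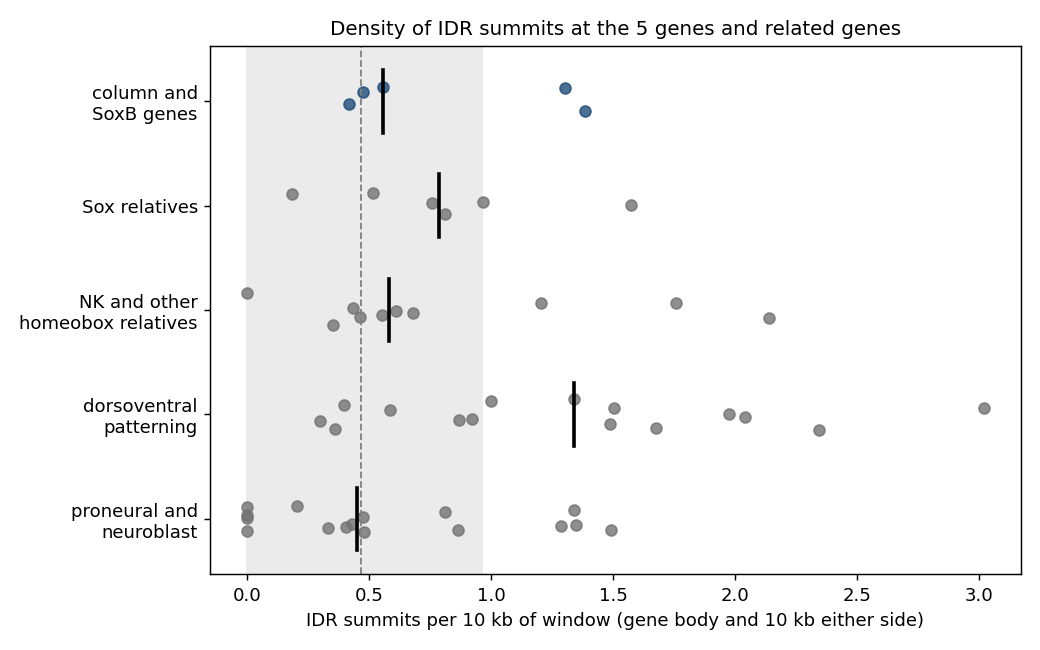
IDR summits per 10 kb of window for each gene (points) in the 5 genes and in the 4 lists of related genes, with the list median as a black bar, the median of all protein-coding genes as a dashed line at 0.468 and their quartiles as grey shading. Dr and D lie above the other 3 of the 5 genes, and the dorsoventral patterning list has the highest median, at 1.34.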

How the data were processed

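ChIP-seq peak lists of 3 replicates, of the pooled replicates and of the IDR set were used as deposited. Per the file headers (the text beside each sample), the authors called peaks on each replicate and on the pool against 1 control, on dm6. For the aligner, caller and thresholds, the sources used here give no name or setting. The signal value and the −log10 q of each peak are the authors' own, as deposited, and the summit is the start plus the deposited offset. All 6706 IDR peaks were identical to a pooled peak. Genes came from Ensembl release 115 (BDGP6.54), without transposable elements, and sequence from the RefSeq copy of the assembly. No peak passed the end of its arm.

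The 5 genes, the lists and the motifs were chosen with earlier results of these data known. Genes named are the 5, the 3 best-ranked of each list, the 2 most alike in replicate rank, and neighbours of described peaks; others were chosen after their values were seen. Alternatives changed the window (5 or 20 kb), the match (75 or 300 bp, or 50% overlap), the number of top peaks, the TSS and motif windows, the assignment and the replicates. Counts, ranks and motif searches were tested on made-up peaks with known answers. Intervals are exact (95%) and cover counting error only. Python 3.11.15, numpy 2.4.6, scipy 1.17.1, pandas 2.3.3 and matplotlib 3.10.9 were used.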

Additional observations from a re-analysis of the deposited data

How the results depend on the processing

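With 5 kb the 5 genes held 5 IDR summits and with 20 kb 21, against 11 at 10 kb, while the share of protein-coding genes with an IDR summit was 54.6% and 82.6%, against 68.9% (66.2% for all annotated genes). The 7 peaks of the higher-signal part of the IDR set lay at vnd, Dr and D, so ind and SoxN had none there. Peaks found in every replicate numbered 5 among the 3000 highest, against 9, and lay between 9 and 10 without any 1 replicate. The mean number of top peaks over the windows was 11.7. It was 6.33 and 16.3 for the 3000 and 10000 highest peaks, 5.33 and 21.7 for 5 and 20 kb, and between 11 and 12.5 without any 1 replicate. These moves follow from the settings' own construction, which admits fewer or more peaks. Merging overlaps, assignment to the nearest gene (9 peaks), the match rules, the TSS window and the motif window kept the corresponding totals within 1.5 times, while single motifs moved further (AACAAT in 4 of the 11 peaks and GAGAG in 3 at 100 bp, against 1 each). Assignment to the nearest gene gave the only ind peak to Sytbeta and the peak 5183 bp past vnd to spdi, so ind kept no IDR peak. The best IDR rank at SoxN was 1702 at 20 kb, against 3629, and at 5 kb SoxN had no IDR summit. The coding TSS nearest to the peak at rank 1702 was that of CG32986, not of SoxN. A best IDR rank within the gene body alone could not be given for any of the 5 genes, since no IDR summit lay there. No paired analysis was possible because the series has 1 group. No read depth was given, so a site below the lists cannot be told from an unbound one.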

Other observations

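Beyond the windows, the distance from 10 to 20 kb held 10 more IDR peaks. The nearest to the 10 kb limit was at D, 11531 bp upstream of the gene at rank 4075 and 503 bp from the TSS of nan, while the farthest inside was at D too, at 9138 bp. D had 6 of the 10, ranked between 4075 and 6207, and 3 of these were intronic to nuf. SoxN had 2, both downstream: 1 at 12686 bp, at rank 2071 (2316, 2110 and 2099 in replicates 1, 2 and 3), and 1 at 16447 bp, at rank 1702 (659, 1648 and 3865). The strongest IDR peak within 20 kb of SoxN was thus outside the 10 kb window. The coding TSS nearest to that peak was that of CG32986, at 16659 bp, and the site cannot be assigned to SoxN from position alone. Dr had 1 on either side, at 14874 bp upstream (rank 1990) and 16425 bp downstream (rank 1740). The coding TSS nearest to the downstream one was that of CG7567, at 6435 bp. The windows of vnd and ind gained none.

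The protein-coding genes whose best replicate ranks were most like those of each gene, by distance of log10 ranks over the 3 replicates, were Nemp and CG32573 for vnd (0.0280), CG4374 (0.0956) and CG4842 (0.0965) for ind, CG18281 and CG17637 for Dr (0.0305), CG13653 (0.0281) and Liprin-gamma (0.0319) for SoxN, and CG13086 (0.0329) and DIP-delta (0.0494) for D. The pairs given for vnd and Dr had the same best ranks, and each gene's best rank was taken over its whole window. The best ranks of a gene can thus come from different sites in different replicates, as they did at vnd, ind, Dr and D. CG4842 had no IDR summit in its window.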
